A study of Homo sapiens with 8 samples.

Results

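The genes described are the 8 members of the E2F family of transcription factors, E2F1 to E2F8, with RB1, the pocket protein that binds the activating E2Fs, and TFDP1, the subunit with which most E2Fs form a dimer. They were taken by symbol from a table of 25435 genes, all 10 symbols were present, and all 10 were among the 14898 genes with enough counts to be tested. Messenger RNA was sequenced in 8 libraries of SET-2, an established line of megakaryoblastic leukemic cells that arose from essential thrombocythemia and has an activating mutation of JAK2. The 4 libraries labelled ZRSR2 KO came from cells transduced with a virus carrying GFP and guide 1 or guide 2 against ZRSR2, which encodes a splicing factor for the minor, U12-type class of introns. The 4 control libraries, labelled ZRSR2 wildtype, received non-targeting guide 1 or 2. Each guide was used in experiment 1 and again in experiment 2, and cells were collected 20 days after transduction in the former and 25 days after it in the latter, if the biological replicates of the protocol are the experiments of the titles. In what follows, replicates 1 and 2 of a genotype are its guides 1 and 2 in experiment 1, while 3 and 4 stand for the same guides in experiment 2. All 8 libraries share 1 cell line, and the labels do not say whether cells were pools or clones.

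E2F proteins bind a short DNA element in front of genes needed for DNA replication and for passage from G1 into S phase. E2F1, E2F2 and E2F3 are the activating members, E2F4 and E2F5 act mostly as repressors together with the pocket proteins, E2F6 represses with Polycomb-type complexes and without pocket proteins, and E2F7 and E2F8 are repressors that bind DNA without a dimerisation partner. Phosphorylation of RB1 by cyclin-dependent kinases releases the activating members, and in proliferating blood cells the family is known for coupling growth signals to the cell cycle. Several E2F genes are also known as carriers of a U12-type intron.

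The upstream sequences of members whose levels are described below are shown because a promoter element tied to the family separates them. The sequences are from RefSeq on GRCh38.p14, 100 bases each and ending at the base before the RefSeq transcript start, 5′ to 3′ on the strand of the gene, and capitals mark an E2F element. The element was searched as TTTCCCGC or TTTGGCGC on both strands between 250 bases before and 50 bases after the start. Only these exact letters count as the element here, and other forms of the site were not searched. They are the stretches before E2F1 (chr20:33686386-33686485, minus strand), E2F2 (chr1:23531234-23531333, minus strand), the first of 2 RefSeq starts of E2F3 (chr6:20401779-20401878, plus strand), E2F4 (chr16:67192055-67192154, plus strand) and E2F6 (chr2:11466162-11466261, minus strand).
E2F1: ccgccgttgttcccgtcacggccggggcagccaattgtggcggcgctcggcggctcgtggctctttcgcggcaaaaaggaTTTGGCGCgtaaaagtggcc
E2F2: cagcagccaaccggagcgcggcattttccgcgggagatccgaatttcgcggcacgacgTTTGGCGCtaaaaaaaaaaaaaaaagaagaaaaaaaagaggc
E2F3: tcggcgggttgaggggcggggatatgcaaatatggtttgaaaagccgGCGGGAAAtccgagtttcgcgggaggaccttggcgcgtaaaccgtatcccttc
E2F4: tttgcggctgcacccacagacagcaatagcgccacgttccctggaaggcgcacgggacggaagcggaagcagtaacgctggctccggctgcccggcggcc
E2F6: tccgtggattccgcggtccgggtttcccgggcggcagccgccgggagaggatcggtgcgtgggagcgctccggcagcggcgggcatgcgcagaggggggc

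The genes of all 3 activating members, E2F1, E2F2 and E2F3, held 1 exact match each, whose first base on the gene's strand lay 20, 42 and 53 bases before the start. The match in E2F3 reads on the opposite strand. No match lay in the windows of E2F4, E2F6, E2F7 or TFDP1, nor in that of the second E2F3 start, 1708 bases into the gene. For scale, 797 of 35116 promoters in the RefSeq table held the element, which is 2.27%. Among 41 promoters of a list of G1/S genes regulated by E2F, 14 held it, or 34.1%, and among 20 promoters of G2/M genes, 1 did, or 5%. A different element, the CHR motif TTTGAA, lay in 13 of those 20 G2/M promoters (65%), in 1 of the 41 G1/S promoters and in 15.2% of all promoters. It was found before E2F3 as well, 65 bases ahead of the first start. E2F5 and E2F8 had no entry in that table, and the entry for RB1 lies 172724 bases inside the gene, so it was not used.

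The intron of E2F4 that matched a U12-type pattern is shown next, since this is the intron class that ZRSR2 serves. The pattern asked for a start of ATATCCTT or GTATCCTT with at most 1 mismatch and for a branch motif TCCTTAAC with at most 2 mismatches, lying 5 to 40 bases before the intron's end. Only introns whose ends are covered by another GENCODE 29 transcript of the gene could be read, which left 9 of the 125 introns in coding transcripts of the 10 genes. Of those 9, 5 were in E2F4, 3 in E2F5 and 1 in E2F3. The match is chr16:67193171-67193471 on GRCh38, plus strand, and its first 30 and last 50 bases are given with the letters set against the pattern in capitals, followed by the start of an E2F6 intron.
E2F4 intron start: ATATCCTCctggcggtccctgctgggggga
E2F4 intron end: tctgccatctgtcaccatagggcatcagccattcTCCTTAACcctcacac
E2F6 intron start: ATATCCTTtaagtctatacctttttaaaat

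The E2F4 start differs from the pattern by 1 base, and its branch motif matched with 0 mismatches, 8 bases before the end. The E2F6 intron at chr2:11450127-11451650, minus strand, had a start with 0 mismatches, and its end was not read. The other 116 introns of the 10 genes could not be scored at both ends. Counts per gene do not resolve the splicing of an intron, so the levels below bear on total RNA of each gene only.

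Depth was between 31106042 and 71521173 counts per library. Levels are given in CPM, counts per 1000000 counts of a library after scaling by TMM factors. The labelled lineage was checked with 10 megakaryocyte markers, of which 8 were above 5 CPM in every library. ITGA2B alone stood at 2090 to 2710 CPM, while PF4 was at 1.1 to 3.03 CPM and GP1BB at 0 counts in every library. ZRSR2 itself, the target of the guides, gave 29.4 and 22.9 CPM in the knockout libraries of experiment 1 and 28.3 and 18.7 CPM in those of experiment 2, and its controls 37.9, 39.2, 39.7 and 41.1 CPM. All 4 knockout libraries thus lay below all 4 controls, with RNA of the targeted gene still present, and the exact permutation p was 0.029, the smallest that 4 against 4 can give. Across all genes, edgeR's quasi-likelihood test with Benjamini-Hochberg adjustment left the gene uncalled, at a log2 fold change of −0.67 and an adjusted p of 0.275 once the experiment was added as a block, while DESeq2 with the block gave an adjusted p of 5.38e-04.

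Levels of different genes were compared per kilobase of their longest GENCODE coding transcript. Over the 8 libraries TFDP1 had the highest level, 116 CPM per kilobase (range 92.2 to 166), followed by E2F4, the main repressor-class member, at 77.3 (46.3 to 106), with ranges that overlapped. E2F1, RB1 and E2F3 came next at 19.6, 15.9 and 15.9 CPM per kilobase, and their ranges overlapped. E2F8 at 9.19 and E2F6 at 7.98 overlapped too, and below them lay E2F2 at 4.14, E2F5 at 2.52 and E2F7 at 0.158 CPM per kilobase. E2F7 was the lowest in every library, with 27 to 56 counts, while no library held fewer than 142 counts of any of the other 9 members. The order of the first 2 was not the same in both experiments: in the controls of experiment 1, E2F4 (104 and 106) lay above TFDP1 (94.8 and 101), and in those of experiment 2, TFDP1 (112 and 166) lay above E2F4 (46.3 and 59.9).

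**Figure D1:**
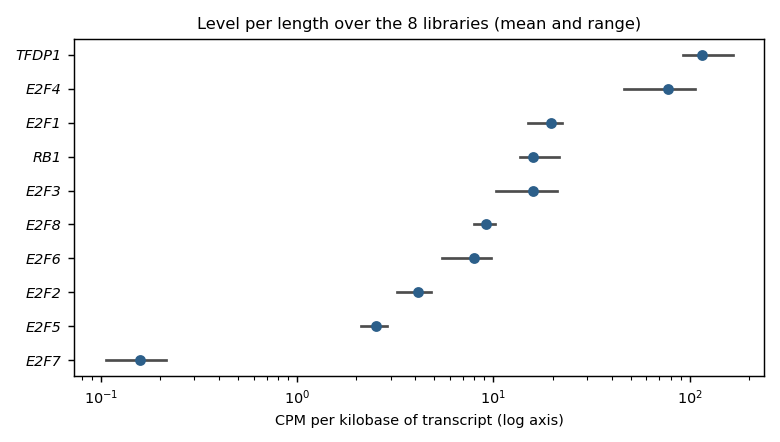
Level of each gene in CPM per kilobase of transcript on a log axis, with points for the mean and lines for the lowest to the highest of the 8 libraries. TFDP1 and E2F4 stand above the other 8 genes, and E2F7 lies more than 10-fold below E2F5.

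More members passed the test between the experiments than between the genotypes. E2F3, E2F4 and E2F6 fell in experiment 2 together with E2F2, while RB1 and TFDP1 rose, so that 6 of the 10 members passed an adjusted p of 0.05 (edgeR quasi-likelihood, Benjamini-Hochberg over all tested genes). That count is near the background, since 58.2% of all 14898 genes passed in this comparison, 29.6% higher and 28.6% lower. Experiment, collection day and anything else that went with a run cannot be told apart here, and with 1 run of each the p-values measure the spread between libraries of a run. Libraries of the 2 experiments did not overlap for 5 of the 10 members, against 56% of all genes. Lower RNA per cell and fewer cells of a kind cannot be told apart in such bulk samples.

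**Figure D2:**
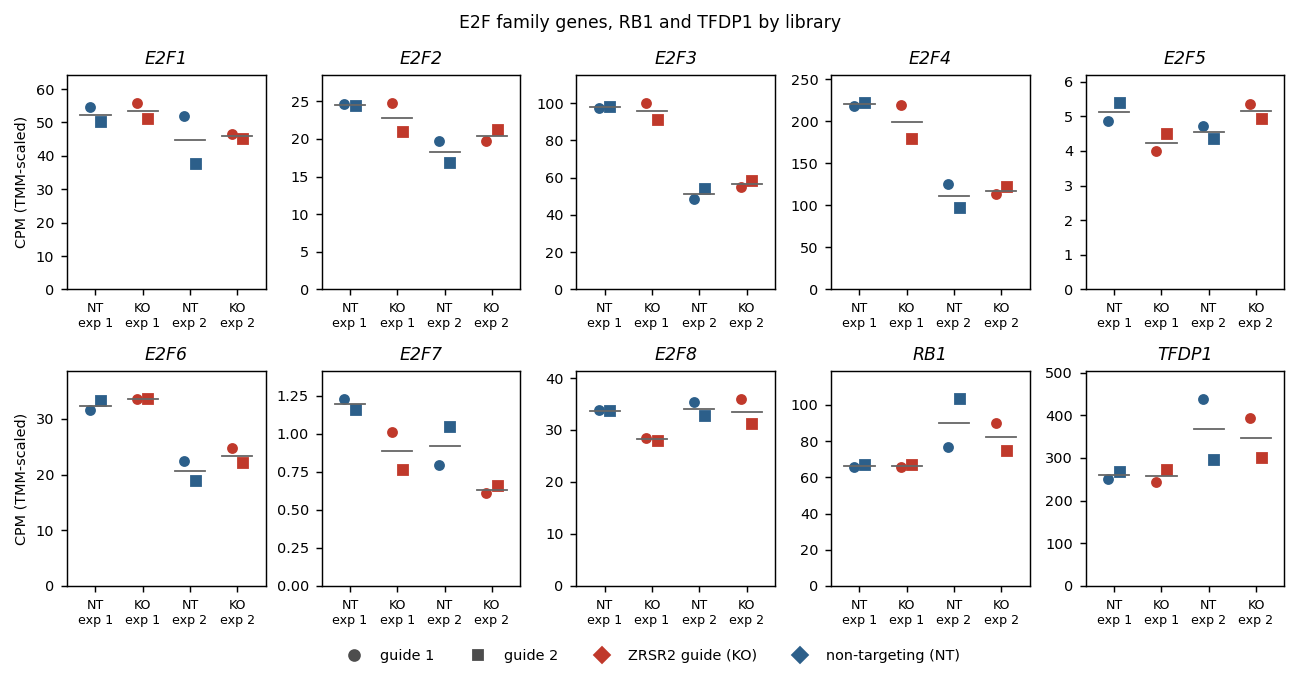
CPM of each gene in each library on linear axes from 0, by genotype and experiment (NT, non-targeting; KO, ZRSR2 guides), with circles for guide 1, squares for guide 2 and bars for the mean of 2 libraries. E2F3, E2F4 and E2F6 sit lower in all 4 libraries of experiment 2, RB1 and TFDP1 sit higher, and E2F7 is lower in the knockout pair of each experiment.

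Of the activating members, E2F3 had the largest estimate. E2F3 was at 97.6 and 97.7 CPM in the controls and 100 and 91.2 CPM in the knockout libraries of experiment 1, and at 48.7 and 53.8 CPM in the controls and 55.1 and 58.2 CPM in the knockout libraries of experiment 2. The lowest library of experiment 1 was thus far above the highest of experiment 2, and each genotype showed the same step. Relative to experiment 1 the log2 fold change was −0.84 (SE 0.073, adjusted p = 6.17e-06), a level 0.557 times as high. E2F2, a member known for its part in erythroid cell division, had a smaller difference: its controls went from 24.6 and 24.4 CPM to 19.7 and 16.8 CPM, and its knockout libraries from 24.8 and 20.9 CPM to 19.7 and 21.2 CPM. Knockout replicate 4 of experiment 2 lay above knockout replicate 2 of experiment 1, so the experiments overlapped. Its log2 fold change was −0.29 (SE 0.096, adjusted p = 0.0229), and the call was lost in 4 of the 8 fits that leave out 1 library, with adjusted p of 0.104 without knockout replicate 1, 0.0768 and 0.0736 without control replicates 1 and 2, and 0.0662 without knockout replicate 3. E2F1, the member whose own promoter element is printed above and which is a textbook target of the family, did not pass. Its libraries held 54.6 and 50.2 CPM (controls) and 56.0 and 51.1 CPM (knockout) in experiment 1, and 51.8 and 37.4 CPM (controls) and 46.5 and 45.1 CPM (knockout) in experiment 2. Control replicate 3, the library of greatest depth, reached the level of experiment 1. The log2 fold change of E2F1 was −0.23 (SE 0.103, adjusted p = 0.0803). It ran from −0.352 to −0.124 over the 8 fits that leave out 1 library, with −0.35 without control replicate 3. In 1 of those 8 fits E2F1 passed the threshold. Of the 3 genes with a promoter element, E2F3 thus had a 95% interval of −1.005 to −0.684, E2F2 of −0.503 to −0.078 and E2F1 of −0.452 to 0.001, and the differences between these genes were not tested.

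Among the repressors, E2F4 gave the largest estimate of any member, by less than its SE from that of E2F3. It stood at 219 and 222 CPM (controls) and 219 and 179 CPM (knockout) in experiment 1, against 125 and 97.1 CPM (controls) and 114 and 121 CPM (knockout) in experiment 2. No library of experiment 2 reached the lowest of experiment 1. Its log2 fold change was −0.87 (SE 0.096, adjusted p = 2.90e-05). E2F5, the other pocket-binding repressor, was low and flat, between 3.99 and 5.40 CPM in all 8 libraries, with a log2 fold change of 0.05 and a 95% interval of −0.23 to 0.33. E2F6 was at 31.5 and 33.2 CPM (controls) and 33.6 and 33.6 CPM (knockout) in experiment 1, and at 22.5 and 18.9 CPM (controls) and 24.7 and 22.1 CPM (knockout) in experiment 2. Again the libraries of the experiments did not overlap. The estimated log2 fold change was −0.58 (SE 0.089, adjusted p = 2.66e-04). The atypical members did not pass: E2F8 lay between 27.95 and 36.0 CPM and its log2 fold change was 0.13 (adjusted p = 0.19), and E2F7 lay between 0.61 and 1.23 CPM and had −0.43 (SE 0.227, adjusted p = 0.121).

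The partners went the other way. RB1 was between 65.7 and 67.1 CPM in the 4 libraries of experiment 1, the tightest set of any member relative to its mean, and at 76.7 and 103 CPM (controls) and 90.0 and 74.4 CPM (knockout) in experiment 2. Every library of experiment 2 was higher, and the spread was wider (SD 13.4 against 0.666 CPM). Its log2 fold change was 0.37 (SE 0.101, adjusted p = 0.00855). TFDP1 was at 251 and 267 CPM (controls) and 244 and 272 CPM (knockout) in experiment 1, and at 438 and 296 CPM (controls) and 394 and 301 CPM (knockout) in experiment 2. In experiment 2 the libraries of guide 1 of both genotypes, one targeting and one not, were the higher ones. The log2 fold change of TFDP1 was 0.47 (SE 0.123, adjusted p = 0.00731). E2F3, E2F4, E2F6, RB1 and TFDP1 stayed past the threshold in each of the 8 fits that left out 1 library.

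**Figure D3:**
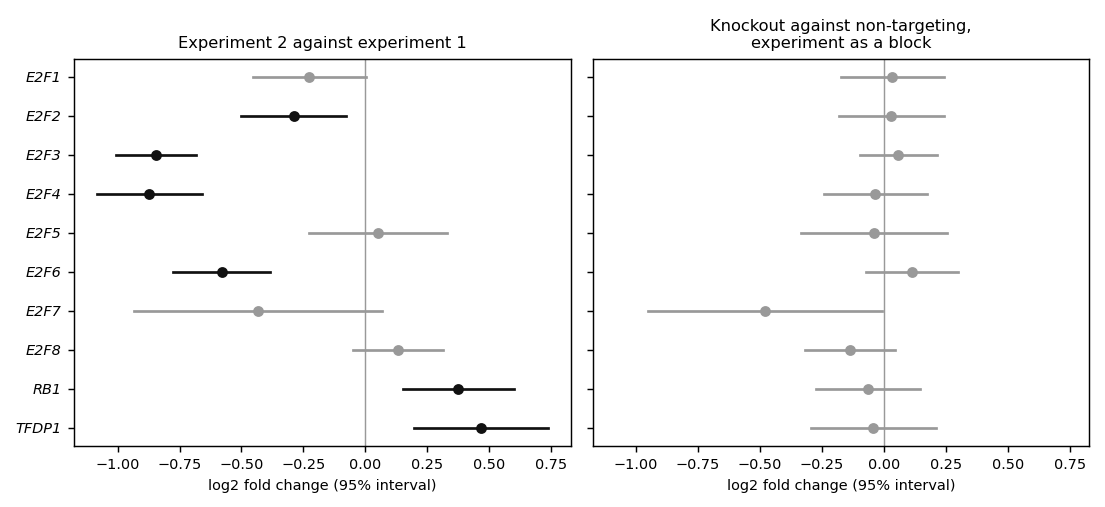
Log2 fold changes of the 10 genes with 95% intervals, for experiment 2 against experiment 1 (left) and for knockout against non-targeting with the experiment as a block (right), black where the adjusted p is under 0.05. On the left 4 genes lie below 0 and 2 above it in black, and on the right no gene passed.

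Genes that work with the family were read in the same comparison from 6 lists. Of the other pocket proteins and dimer partners, 3 of 4 listed genes were tested, since TFDP3 was not, and all 3 changed. RBL2, the pocket protein p130 of resting cells, rose from 60.2 ± 1.19 to 103 ± 13.0 CPM (SD, n = 4 each; log2 fold change 0.78, adjusted p = 2.42e-05). TFDP2, an alternative dimer partner, rose by 0.27 (adjusted p = 0.0106), and RBL1, the pocket protein p107, fell by 0.27 (adjusted p = 0.0162). Of the G1 cyclins, CDKs and CDK inhibitors, 13 of 15 were tested, 2 rose and 5 fell, with a median log2 fold change of −0.03, and the share called, 53.8%, was near the 58.2% of all genes. CDKN1C, the inhibitor p57, went from 2.29 ± 0.265 to 11.9 ± 2.31 CPM (SD, n = 4 each; log2 fold change 2.38, adjusted p = 1.70e-06). CDKN1A, the inhibitor p21, went the other way, from 49.1 ± 3.45 to 23.8 ± 1.67 CPM (log2 fold change −1.05, adjusted p = 3.72e-06). The E-type cyclins, partners of CDK2 at the G1/S boundary and themselves known E2F targets, both fell, CCNE1 by 0.78 (adjusted p = 1.04e-04) and CCNE2 by 0.83 (adjusted p = 8.12e-04) on the log2 scale.

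Subunits of the complexes that carry E2F4 and E2F6 moved in both directions, and the shares called, 50% and 55.6%, were near the 58.2% of all genes. In the DREAM and MuvB list, 3 of 6 genes passed: RBBP4, a histone-binding subunit shared with several chromatin complexes, fell by 0.36 (adjusted p = 0.00142), while LIN54, the subunit that binds CHR elements, rose by 0.39 (adjusted p = 0.00194) and LIN37 by 0.38 (adjusted p = 0.00654). Of 9 partners of E2F6 in repressor complexes, 1 rose and 4 fell, with a median of −0.14. L3MBTL2, a subunit of the Polycomb-type complex that holds E2F6, fell from 70.8 ± 2.21 to 34.7 ± 6.18 CPM (SD, n = 4 each; log2 fold change −1.03, adjusted p = 3.43e-05). PCGF6 fell by 0.52 (adjusted p = 0.00251) and RING1 by 0.32 (adjusted p = 0.00388), both from the same kind of complex, and the methyltransferase gene EHMT2 rose by 0.24 (adjusted p = 0.0209).

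Known E2F targets of G1/S did not move one way. Of 32 tested, 5 rose and 10 fell, which is 46.9% against the 58.2% of all genes, and the median log2 fold change was −0.05 against 0.003 over all genes. RRM2, the small subunit of ribonucleotide reductase, fell from 110 ± 10.5 to 68.9 ± 5.40 CPM (SD, n = 4 each; log2 fold change −0.67, adjusted p = 4.34e-05). FEN1, a flap nuclease of lagging-strand synthesis, fell by 0.44 (adjusted p = 0.00218) and POLA1, the catalytic subunit of DNA polymerase alpha, by 0.39 (adjusted p = 0.00112), whereas ORC1 of the origin recognition complex rose by 0.51 (adjusted p = 0.00111). Of 21 G2/M genes, 14 rose and 2 fell, a share called of 76.2%, with a median of 0.26. BUB1, a kinase of the spindle checkpoint, rose from 144 ± 6.28 to 315 ± 66.2 CPM (SD, n = 4 each; log2 fold change 1.12, adjusted p = 1.24e-05). CDC25C, the phosphatase that activates CDK1, rose by 0.60 (adjusted p = 0.0017), NUSAP1, a spindle protein, by 0.58 (adjusted p = 1.82e-04) and AURKB, the kinase of the chromosomal passenger complex, by 0.43 (adjusted p = 6.72e-04). The 2 that fell, named after their values were seen, were CCNB1 (−0.26, adjusted p = 0.0253) and UBE2C (−0.28, adjusted p = 0.0221). The medians were −0.26 for the 10 members and 0.26 for the G2/M genes, against 0.003 for all genes.

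**Figure D4:**
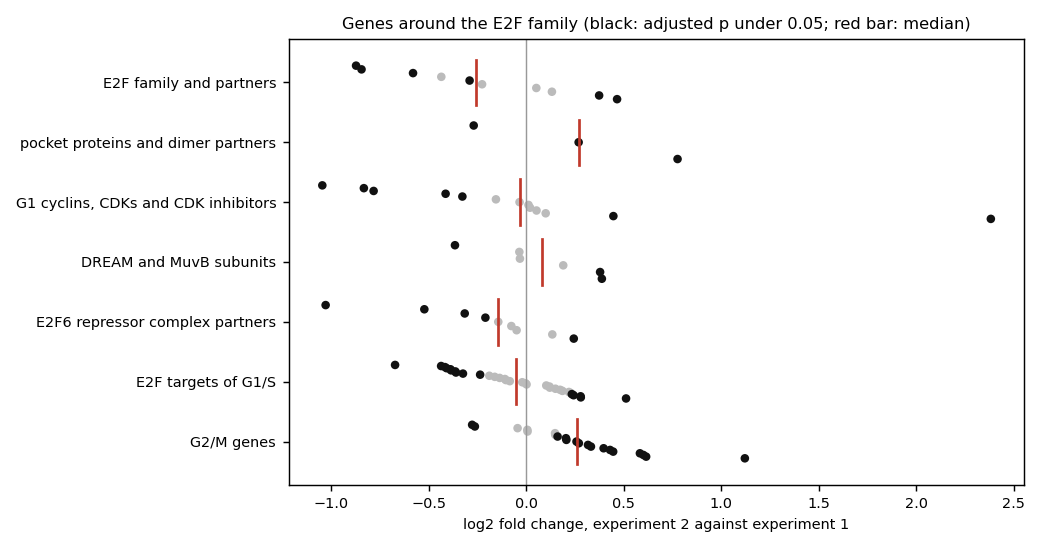
Log2 fold change of experiment 2 against experiment 1 for the 10 genes and for 6 lists of genes around them, 1 point per gene, black where the adjusted p is under 0.05, with a red bar at each median. The G2/M points lie mostly to the right of 0 (14 black above, 2 below), and the G1/S targets lie on both sides (5 above, 10 below).

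Markers of other lineages moved between the experiments too. Granulocyte and monocyte markers summed to 12.5 to 15.4 CPM in experiment 1 and 42.3 to 59 CPM in experiment 2, carried by CSF3R (11.7 to 14.3 CPM, then 41.6 to 58 CPM), while MPO reached at most 0.0713 CPM. The 5 erythroid markers summed to 247 to 286 and then 301 to 437 CPM, and the 10 megakaryocyte markers to 3470 to 3710 and then 3630 to 4420 CPM. The 4 lymphoid markers never summed to more than 0.244 CPM, with MS4A1 at 0 throughout, and the 3 stromal ones summed to 3.16 to 4.15 and then 3.44 to 4.18 CPM. Within that stromal sum COL3A1 went from 2.29 to 3.14 CPM down to 0.143 to 0.539 CPM, and PDGFRB from 0.551 to 0.898 CPM up to 2.79 to 3.63 CPM, each without overlap. The part of these lineage differences in the results above was not tested.

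Between knockout and non-targeting libraries no member passed the test. The fit with genotype alone called 0 of 14898 genes (0%), against 89 at an unadjusted p under 0.05 (0.597%), and DESeq2 called 4 (0.0268%), with 0 members. Libraries of the same experiment resembled each other across genotypes. Adding the experiment as a block still left 0 genes called, although 690 had an unadjusted p under 0.05 (4.63%), and DESeq2 with the block called 31 (0.208%), again with 0 members. No member passed within experiment 1 or within experiment 2 either. There 0 genes passed by edgeR, with 305 (2.05%) and 645 (4.33%) at an unadjusted p under 0.05, and DESeq2 called 5 (0.0336%) and 13 (0.0873%). The difference of the effect between experiments gave 0 genes, with 248 (1.66%) at an unadjusted p under 0.05. By guide, edgeR called 0 genes for each ZRSR2 guide against the controls and for guide 2 against guide 1, with 33 (0.222%), 98 (0.658%) and 58 (0.389%) at an unadjusted p under 0.05. DESeq2 called 1 gene for guide 1 (0.00671%) and 3 for guide 2 (0.0201%), and edgeR with the block called 3 for guide 2 (0.0201%), ZRSR2 among them and 0 members. Values of single genes that follow are from the fit with the block, unless another is named.

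For the activating members the estimates lay close to 0. Their log2 fold changes were 0.03 for E2F1 (95% interval −0.17 to 0.24), 0.03 for E2F2 (−0.18 to 0.24) and 0.06 for E2F3 (−0.10 to 0.21). E2F4, the gene with the matched U12-type intron, had a mean of 158 ± 49.9 CPM in knockout and 166 ± 64.1 CPM in control libraries (SD, n = 4 each). Those SDs hold the step between experiments, and in the blocked fit its log2 fold change was −0.03 (−0.24 to 0.17). E2F6 was at 0.11 (−0.07 to 0.30), while RB1 was at −0.06 (−0.27 to 0.15) and TFDP1 at −0.04 (−0.29 to 0.21). E2F5 was at −0.04 (−0.34 to 0.25), an average over experiments with estimates on opposite sides of 0. In experiment 1 its knockout libraries held 3.99 and 4.49 CPM and its controls 4.85 and 5.40 CPM, and in experiment 2 its knockout libraries held 5.36 and 4.92 CPM and its controls 4.73 and 4.34 CPM. The knockout pair was thus the lower one in experiment 1 and the higher one in experiment 2. In the fit with 4 cells of genotype by experiment the log2 fold changes of E2F5 were −0.27 (SE 0.181) and 0.18 (SE 0.176), and their difference of 0.45 (SE 0.253) did not pass (unadjusted p = 0.104, adjusted p = 1 by edgeR). E2F5 was not alone in this. Estimates for experiments 1 and 2 also had opposite signs for E2F2 (−0.10 and 0.16), E2F3 (−0.03 and 0.15), E2F4 (−0.15 and 0.08) and RB1 (0.004 and −0.13). The widest of these 8 intervals is that of E2F5 and the narrowest that of E2F3. Such intervals are no limit of detection, since ZRSR2 at −0.67 (−0.945 to −0.399) was not called in the edgeR fit with the block. For E2F3, E2F4, E2F6, RB1 and TFDP1 the estimate between genotypes was smaller in size than the one between experiments. They are the members whose libraries did not overlap between experiments, so this follows in part from their choice, and it was not tested.

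E2F7 had the lowest knockout estimate of the 10. Its controls held 1.23, 1.16, 0.798 and 1.04 CPM in replicates 1 to 4 and its knockout libraries 1.01, 0.763, 0.609 and 0.657 CPM. Knockout libraries were below both controls of their own experiment each time, while knockout replicate 1 of experiment 1 exceeded control replicate 3 of experiment 2. The log2 fold change was −0.48 with the block (95% interval −0.95 to −0.01, unadjusted p = 0.047, adjusted p = 1) and −0.47 without it (SE 0.263, unadjusted p = 0.108, adjusted p = 1), by edgeR's quasi-likelihood test. In that edgeR fit with the block, 4.63% of all genes had an unadjusted p under 0.05. DESeq2 gave −0.48 with the block (SE 0.3, unadjusted p = 0.107) and −0.47 without it (SE 0.307, unadjusted p = 0.126). The two-sided exact permutation test of the CPM means, which ignored the experiment, gave p = 0.0571. For scale, 3.26% of all genes were lower without overlap in each experiment. With 27 to 56 counts a library the gene is the least precisely measured member. Both guides had estimates below 0 with the block, −0.40 for guide 1 (95% interval −0.997 to 0.203) and −0.56 for guide 2 (−1.161 to 0.04), from comparisons that share the 4 controls. Guide 2 against guide 1 gave −0.16 (−0.867 to 0.539). Without the block the estimate for guide 1 was −0.38, and it rested on few libraries, at −0.06 without knockout replicate 3 and −0.79 without knockout replicate 1. Each of those fits left guide 1 with a library of only 1 experiment, set against controls of both.

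E2F8, the other atypical repressor, was at 33.8 and 33.6 CPM in the controls and 28.4 and 27.95 CPM in the knockout libraries of experiment 1. In experiment 2 it was at 35.3 and 32.7 CPM in the controls and 36.0 and 31.1 CPM in the knockout libraries. The genotypes were separate in experiment 1 and overlapped in experiment 2. In the fit with 4 cells its log2 fold change was −0.26 in experiment 1 (SE 0.117, unadjusted p = 0.05, adjusted p = 1) and −0.02 in experiment 2 (SE 0.116, unadjusted p = 0.863, adjusted p = 0.998), and the difference between them was 0.24 (SE 0.165, unadjusted p = 0.177, adjusted p = 1, edgeR quasi-likelihood). The effect is therefore not shown to differ between the experiments. Over both experiments with the block E2F8 was at −0.14 (95% interval −0.32 to 0.04). By guide, also with the block, its estimates were −0.08 for guide 1 (−0.311 to 0.154) and −0.20 for guide 2 (−0.433 to 0.033). Its exact permutation p was 0.2, and those of the other 8 members ranged from 0.6 to 0.857. That test ignored the experiment, so a step between experiments adds to its spread. A large p there does not show that the genotypes were alike.

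None of the 6 lists held a gene past the threshold between genotypes, and their values here are from the fit with genotype alone. The 32 G1/S targets had 18 estimates above and 14 below 0, with a median log2 fold change of 0.02, and the smallest p-values were those of PRIM1 at −0.21 and TK1 at −0.12, both with an adjusted p of 1. Estimates for the G2/M genes were below 0 in 20 of 21, with a median of −0.06, where 7645 of all 14898 genes were below 0 with a median of −0.003. PLK1, a mitotic kinase, was at −0.20 (SE 0.075, unadjusted p = 0.0302, adjusted p = 1 by edgeR) and AURKA, a spindle-pole kinase, at −0.17 (SE 0.082, unadjusted p = 0.0702, adjusted p = 1 by edgeR). With the block, 3 of the 21 G2/M genes had an unadjusted p under 0.05 in place of 1, and none passed the threshold. Over all genes the block took that count from 89 (0.597%) to 690 (4.63%). For guide 2 all 21 G2/M estimates were below 0 with a median of −0.17, where 8073 of all 14898 genes were below 0 with a median of −0.012. For guide 1 it was 12 of 21 with a median of −0.02, where 7401 of all genes were below 0 with a median of 0.001. Guide 2 against guide 1 gave 19 of 21 below 0 with a median of −0.15, where 8102 of all genes were below 0 with a median of −0.013. There 0 of the 21 G2/M genes had an unadjusted p under 0.05 by edgeR. These genes vary together in a library, so the shares are no count of independent changes. Medians of the other 4 lists lay between −0.01 and 0.04.

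The genes whose profile over the 8 libraries was most like that of a member were found by the root-mean-square difference of log2 CPM, after centring each gene on its own mean. The search covered 11013 other genes of at least 5 CPM on average for the members above that level and 11014 for E2F5 and E2F7. RB1 had the closest match, GTF2A1, a subunit of a general transcription factor, at 0.024, then WDR44 at 0.026, over its own range of 0.65. E2F6 was followed by C1QBP at 0.028 and SRPRB at 0.03. For E2F3 they were TEX264 and WDR82, each at 0.036 against a range of 1.04, and for E2F4 BCAR1 at 0.049 and RPS26 at 0.051 against a range of 1.19. TFDP1 matched MAST2 at 0.037 and B4GALT2 at 0.058. E2F1 matched UBL4A and TRAF2 at 0.037 each, and E2F2 matched NT5C3B at 0.036 and TRIM11 at 0.038. The poorest matches were those of the low genes, E2F5 with SEC61A2 at 0.074 and MCTS1 at 0.076, and E2F7 with AQP3 at 0.107 and DLGAP3 at 0.121. No member named here was among the nearest 2 of another, and since so many genes were searched over 8 libraries, such likeness describes these libraries alone.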

How the data were processed

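Messenger RNA libraries (Kapa mRNA kit, per the labels' protocols) of 8 samples were analysed. The authors deposited RSEM expected counts per gene symbol, which were whole numbers already. RSEM 1.2.30, cutadapt 1.11 and hg19 are named in the submitters' processing notes. An aligner, an annotation or a strand setting is not given in the sources used here. Each of the 8 columns carries a library number, and that number in a sample's title gave its sample.

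Genes were filtered with filterByExpr on genotype (14898 of 25435 kept) and tested with edgeR 4.0.16 (R 4.3.3; TMM, quasi-likelihood F test, Benjamini-Hochberg over all tested genes, threshold 0.05). Genotype was tested alone, and experiments in a fit with 4 cells of genotype by experiment. ZRSR2 guides were compared in a fit with 3 groups. Alternatives were DESeq2 1.42.0, DESeq2 size factors, no count filter, at least 10 counts in every library, an additive fit, the experiment as a replicate block, and leaving out each library. Standard errors came from the F statistic, and intervals are at 95%. Log2 CPM used a prior count of 2. A floor of 3 counts was worth 0.0419 to 0.0964 CPM in the libraries, for counting error only. The scripts were tested on simulated data.

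The experiment number ties a library to a collection day. Deviations from genotype means correlated at 0.678 to 0.846 in the 8 knockout and control pairs of the same experiment. In the 8 pairs of different experiments they correlated at −0.816 to −0.709. Each genotype mean spans both experiments, so the negative values largely follow from the positive ones. The number was taken as a block shared by the libraries of an experiment, and a pairing of single libraries was not shown. All pairs of libraries differed by more than sampling noise (smallest chi-square per degree of freedom 3.11).

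The members, the lists and the motifs were chosen with earlier results of these data known. From each list, up to 4 genes of smallest p past the threshold are named, or 2 where none passed. Each member has its 2 nearest genes named, except E2F8, for which they are not reported here. Gene positions and transcript lengths are from GENCODE 29 on GRCh38, not the authors' build. Guide 3 of the design text was not analysed here.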

Additional observations from a re-analysis of the deposited data

Results flagged for a closer look

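One library stood apart in depth: control replicate 3 had 71521173 counts, where the other 3 controls had 31106042 to 36544665. Its gap to the nearest was 0.865 of the range of the group of values, which is past Dixon's limit for 4 values at 95%. Chance gives such a mark in about 1 of 20 groups, and 24 groups of 4 values were looked at. Values of the members without this library are within the ranges given for leaving out each library.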

How the results depend on the processing

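Of 779 values recomputed under other settings for 51 results, 717 were scored as unchanged. For the estimate of a single gene this meant the same direction and the same side of the threshold. For a count of genes or members it meant an equal count, 0 and 0 included, or one of similar size. The count of genes called between genotypes was 0 with genotype alone and 0 with the replicate block, 4 with DESeq2 and 31 with DESeq2 and the replicate block. Leaving out each library with the replicate block gave 0 to 12, with 12 without control replicate 3 and 1 without knockout replicate 3. Within experiment 1 the count of 0 became 5 with DESeq2, 40 with no count filter and 0 to 2 on leaving out each library, the 2 without knockout replicate 1. Within experiment 2 it became 13, 116 and 0 to 154, the last without control replicate 3, which leaves 1 control assumed to vary like the other groups. The difference between experiments in the effect of the knockout gave 5 genes with no count filter. Guide 1 gave 1 gene with DESeq2 and 4 with DESeq2 and the replicate block. Guide 2 gave 3 with the replicate block, 3 with DESeq2 and 51 with DESeq2 and the replicate block, and guide 2 against guide 1 gave 1 with DESeq2 and the replicate block. The cause of these shifts was not tested. No member was among the genes called in any of these fits.

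Between experiments, 5 to 7 members passed across all settings, and 7178 to 9193 genes passed on leaving out each library. E2F1 passed in 1 of the fits that leave out 1 library, and also with no count filter (−0.22, adjusted p = 0.0435 by edgeR).

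The direction between genotypes turned only on leaving out a library. The lowest and highest log2 fold changes were then −0.059 and 0.097 for E2F1, −0.069 and 0.094 for E2F2, −0.126 and 0.194 for E2F3, −0.263 and 0.109 for E2F4, −0.11 and 0.028 for E2F5, −0.018 and 0.231 for E2F6, −0.177 and 0.104 for RB1 and −0.199 and 0.158 for TFDP1. With the replicate block they were −0.041 and 0.133 for E2F1, −0.027 and 0.106 for E2F2, −0.113 and 0.046 for E2F4, −0.109 and 0.034 for E2F5, −0.134 and 0.056 for RB1 and −0.127 and 0.088 for TFDP1. The smaller of the turned values in that fit were −0.018 for E2F2, 0.017 for E2F4, 0.003 for RB1 and 0.037 for TFDP1. E2F8 ran from −0.129 to 0.08 within experiment 2 and from −0.251 to 0.084 for guide 1, and ZRSR2 from −0.204 to 0.093 between experiments. Over the genotypes E2F7 stayed between −0.64 and −0.38 and E2F8 between −0.21 and −0.09. Depth limits E2F7 most, at 27 to 56 counts a library.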
